A study of Mus musculus with 12 samples.

Results

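The 55 genes described here are the matrix proteases, protease inhibitors and collagen crosslinkers of mouse brown fat: protein-coding genes of the Mmp, Timp, Adamts, Adamtsl and Lox families, taken by gene symbol from a table of 61210 gene rows. The rule uses names only and no measured value. It took 22 Mmp, 4 Timp, 19 Adamts, 5 Adamtsl and 5 Lox family genes. Total RNA was sequenced from brown adipose tissue labelled iBAT (interscapular in the study's methods) of wild type C57BL/6N mice, an inbred strain, at 20 weeks of age, with 12 libraries in 4 groups of 3. The 4 groups were a control chow diet (NCD) at 22 °C, NCD with 24 h at 4 °C, 12 weeks of a high-fat diet (HFD), begun at an age of 8 weeks, at 22 °C, and the same HFD with 24 h at 4 °C. Replicates 1 and 2 of each group were labelled batch 1 and replicate 3 batch 2, so each batch holds all 4 groups. The labels do not say whether each library came from a single animal. The study's figure legend gives its group size next to mice, without stating how many animals went into a library. The p-values measure the spread between these libraries, and how much of it is technical was not tested.

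Matrix metalloproteinases (Mmp genes) are zinc enzymes that cut collagens, gelatins and other matrix proteins, and tissue inhibitors of metalloproteinases (Timp genes) bind and block them. Adamts enzymes are related secreted proteases that trim procollagens, cut proteoglycans such as versican and aggrecan, or act on fibrillin, whereas the Adamtsl proteins share their accessory domains and lack the protease domain. Lysyl oxidases (Lox genes) oxidise lysines of collagen and elastin and thereby start their crosslinking. In adipose tissue these genes are known above all from stromal, vascular and immune cells around the adipocytes, and matrix turnover accompanies growth and remodelling of the depot.

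Levels are given as CPM (counts scaled to a fixed library total), after scaling between libraries by the trimmed mean of M-values (TMM), and levels of different genes are compared only as CPM per kb of exon. The libraries held 15136861 to 46740702 counts, and 3 counts corresponded to 0.0699 to 0.193 CPM, the limit that a count of 0 allows by counting error alone. A gene was called when its adjusted p (edgeR quasi-likelihood test, Benjamini-Hochberg over 16737 genes tested) was under 0.05 and its absolute log2 fold change over 0.5. Brown adipocyte markers were abundant in every library, with summed levels of 13879 to 34448 CPM, and Ucp1, the uncoupling protein of brown fat, rose in the cold on NCD with a log2 fold change of 1.96 ± 0.17 SE. Summed skeletal muscle markers ranged from 570 to 17422 CPM and stood apart in 1 library of each group (NCD 22 °C replicate 2, NCD 4 °C replicate 2, HFD 22 °C replicate 3 and HFD 4 °C replicate 3). In the other libraries the muscle sums were lower in the cold. They were 2777 and 3649 CPM on NCD at 22 °C and 1398 and 1206 CPM at 4 °C. On HFD they were 1926 and 2185 CPM at 22 °C and 570 and 768 CPM at 4 °C. The median cold log2 fold change of the 10 muscle markers was -1.01 on NCD and -1.78 on HFD, with 0 called. The part of muscle in the cold contrasts was not tested. Epithelial markers summed to at most 0.746 CPM. In whole tissue, fewer cells of a type and less RNA per cell cannot be told apart.

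Of the 55 members, 40 passed the filter on low counts and were tested. These were 12 of 22 Mmp, 14 of 19 Adamts and every Timp, Adamtsl and Lox family gene. Timp3, an inhibitor that is held in the matrix, was the most abundant member, with a mean of 28.9 CPM per kb and a range of 16.2 to 49.3 CPM per kb over the 12 libraries. Mmp19 followed with 14.5, then the crosslinker Loxl1 with 11.7, Timp4 with 11.1, Adamts1 with 9.81, Lox with 9.46 and Timp2 with 7.53 CPM per kb. The gelatinase Mmp2 reached 6.29, Mmp28 6.19, Adamts9 6.12 and the membrane-bound Mmp15 5.23 CPM per kb. The ranges of neighbours in this order overlapped over the 12 libraries. Timp1 had 0.725, Mmp12 0.241 and Loxl4 0.236 CPM per kb, and Adamts17 was the lowest of the 40 with 0.0542 CPM per kb. For Timp3 and Mmp19, 21.3% and 22.3% of the exon bases overlap exons of a gene on the opposite strand (Syn3 and Tmem198b). The same holds for 12.0% of Mmp28 (1700020L24Rik) and 11.6% of Loxl3 (Htra2), and the use of strand in counting is not given in the sources used here.

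**Figure D1:**
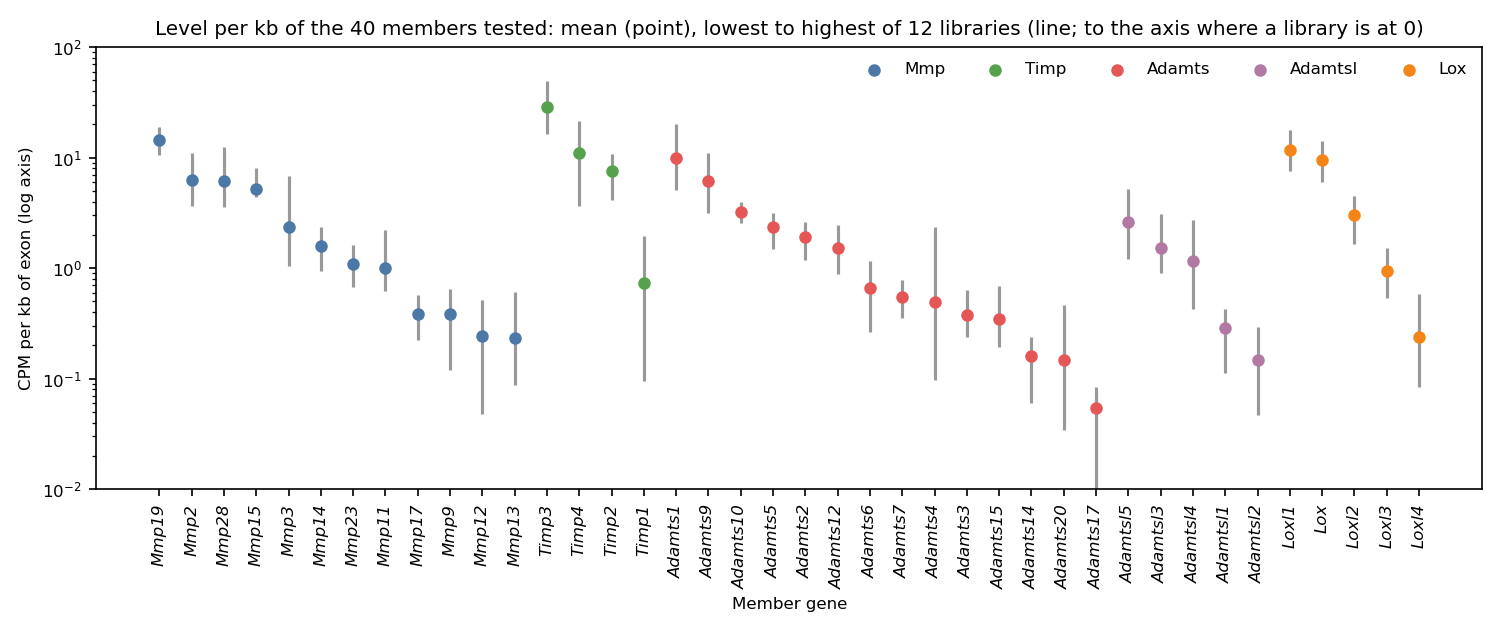
Mean level of the 40 members tested, in CPM per kb of exon on a log axis, ordered by family and level, with lines from the lowest to the highest of 12 libraries. Timp3 leads at 28.9 CPM per kb, and Adamts17 is lowest at 0.0542 CPM per kb, with its line drawn to the axis because 1 library is at 0.

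Summed over a family, Mmp genes amounted to 165 ± 5.69 CPM on NCD at 22 °C, 144 ± 13.4 on NCD at 4 °C, 142 ± 21.98 on HFD at 22 °C and 152 ± 18.2 on HFD at 4 °C (SD, n = 3). Adamts genes summed to 201 ± 15.2, 242 ± 31.8, 245 ± 32.8 and 313 ± 65.996 CPM in the same order. No test was made on these sums. The group means of the Lox sum ran from 97.2 ± 7.84 CPM on NCD at 22 °C to 111 ± 19.6 CPM on HFD at 4 °C. Those of the Timp sum ran from 274 ± 83.6 CPM on NCD at 4 °C to 405 ± 128 CPM on HFD at 22 °C.

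The first comparison asks what 24 h at 4 °C changed on the control diet. It called 6 of 40 members, against 6.27% of all genes tested. Loxl1 and Adamts9 rose (3.72% of all genes did), and Mmp2, Timp2, Adamts6 and Adamts12 fell (2.55% of all genes did). By role, 3 proteases and 1 inhibitor fell, and 1 protease and 1 crosslinker rose. Libraries did not overlap between temperatures for 15 members (27.8% of all genes), 3 higher in the cold (15.2% of all genes) and 12 lower (12.6% of all genes). The median log2 fold change of the 40 members was -0.25, against -0.01 for all genes tested, and 26 of 40 lay below 0.

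Loxl1, a lysyl oxidase that crosslinks elastin, had 25.01, 27.6 and 26.7 CPM in replicates 1, 2 and 3 on NCD at 22 °C and 46.3, 55.6 and 46.04 CPM at 4 °C. Every cold library lay above every library at 22 °C (log2 fold change 0.90 ± 0.16 SE, edgeR adjusted p = 0.00901). Adamts9, a secreted protease that cuts versican and aggrecan, had 52.6, 47.8 and 58.04 CPM at 22 °C and 117, 99.2 and 87.2 CPM at 4 °C. Again the groups did not overlap (log2 fold change 0.94 ± 0.22 SE, edgeR adjusted p = 0.0266). On the opposite strand, exons of A730049H05Rik cover 9.18% of the Adamts9 exon bases. Adamts1, a related versicanase with 29.6, 29.1 and 35.7 CPM at 22 °C and 69.5, 71.9 and 41.4 CPM at 4 °C, was likewise higher in every cold library (log2 fold change 0.95 ± 0.27 SE, edgeR adjusted p = 0.0539), and was not called. A fit blocked on the replicate number called it (edgeR adjusted p = 0.0385).

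Mmp2, gelatinase A, fell from 27.7, 36.7 and 35.8 CPM at 22 °C to 17.7, 19.5 and 15.7 CPM at 4 °C (log2 fold change -0.92 ± 0.21 SE, edgeR adjusted p = 0.0216). Timp2, the inhibitor that takes part in the activation of the Mmp2 proenzyme at the cell surface, fell from 40.2, 41.97 and 32.7 to 23.2, 27.5 and 16.05 CPM (log2 fold change -0.79 ± 0.19 SE, edgeR adjusted p = 0.0283). For both genes the highest cold library lay below the lowest library at 22 °C. Adamts12, a protease known to cut cartilage oligomeric matrix protein, fell from 26.003, 20.1 and 26.5 to 14.2, 9.71 and 9.75 CPM (log2 fold change -1.11 ± 0.24 SE, edgeR adjusted p = 0.0191). Adamts6, a protease linked to fibrillin microfibrils, fell from 4.11, 4.13 and 5.93 to 2.98, 2.06 and 2.13 CPM (log2 fold change -0.99 ± 0.23 SE, edgeR adjusted p = 0.0265). The groups did not overlap for either gene.

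**Figure D2:**
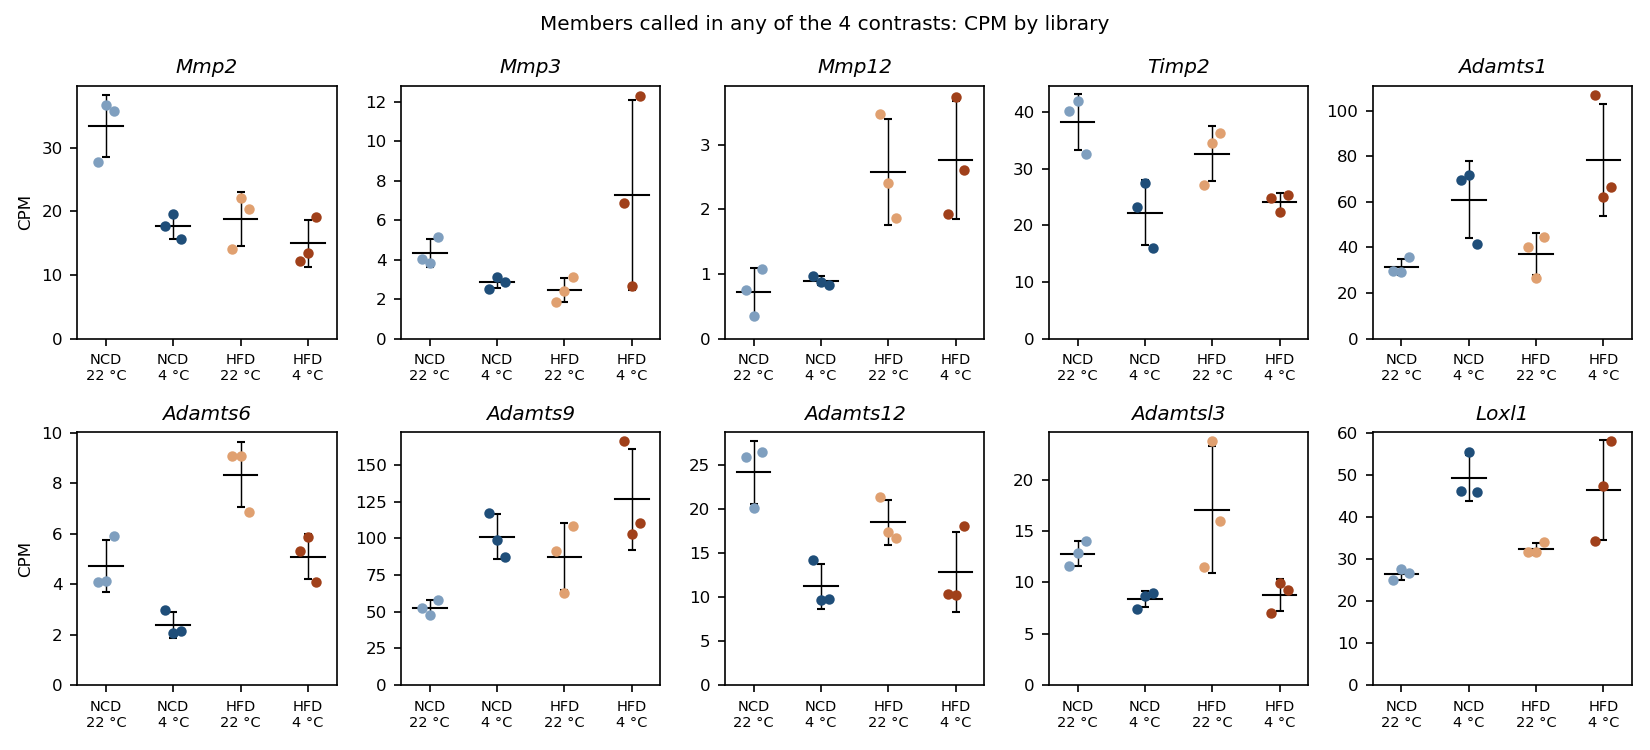
CPM of the 10 members called in any of the 4 contrasts, by library (points, 3 per group), with the group mean (line) and SD (bar); each panel has its own axis from 0. Loxl1, Adamts1 and Adamts9 are higher at 4 °C on NCD, Mmp2, Timp2, Adamts6 and Adamts12 are lower, and Mmp12 is higher on HFD at both temperatures.

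These calls rest on few libraries. Loxl1 was called in each of the 12 fits that left out 1 library. The Adamts9 call was lost when any single one of NCD 22 °C replicates 1, 2 and 3 and NCD 4 °C replicates 1 and 2 was left out (adjusted p from 0.0678 to 0.103 by edgeR). The Mmp2 call was lost when any single one of NCD 22 °C replicates 2 and 3 and NCD 4 °C replicates 1 and 3 was left out (adjusted p from 0.0670 to 0.0845 by edgeR). The Timp2 call was lost when any single one of NCD 22 °C replicates 1, 2 and 3 and NCD 4 °C replicates 1 and 3 was left out (adjusted p from 0.0525 to 0.103 by edgeR). The Adamts12 call was lost when any single one of NCD 22 °C replicates 1 and 3 and NCD 4 °C replicates 2 and 3 was left out (adjusted p from 0.0703 to 0.0787 by edgeR). The Adamts6 call was lost when any single one of NCD 22 °C replicates 2 and 3 and NCD 4 °C replicates 2 and 3 was left out (adjusted p from 0.0505 to 0.104 by edgeR). The count of members called was 1 without NCD 22 °C replicate 3 and at most 7 in the other 11 such fits. With the library richest in muscle markers left out of each group, an alternative chosen after seeing the data, only Adamts12 was called, and Loxl1 had an adjusted p of 0.0519 by edgeR. In the libraries of batch 1 alone, with 2 per group, only Loxl1 was called of the 40 members. Calls over all genes fell as well, from 1049 with all 12 libraries to 490 without NCD 22 °C replicate 3. They were 281 without the muscle-rich libraries and 352 in batch 1 alone. A fit of only the 6 NCD libraries called 7 of the 38 members then tested (6.79% of all genes). Of the 6 above it kept Loxl1, Adamts9, Mmp2 and Adamts12 and lost Timp2 and Adamts6 (adjusted p 0.0720 and 0.0583 by edgeR), and it added Adamts1, Adamts20 and Adamtsl3. The batch 2 libraries alone, 1 per group and thus with no test, gave differences of 0.78 for Loxl1, 0.59 for Adamts9, -1.19 for Mmp2, -1.02 for Timp2, -1.44 for Adamts12 and -1.44 for Adamts6 on the log2 scale, each with the sign of the full fit.

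Deviations of same-numbered libraries correlated across genes in the cold contrasts, at 0.219 to 0.456 on NCD and 0.155 to 0.386 on HFD. Libraries of different number correlated at -0.289 to 0.0439 on NCD and -0.268 to 0.134 on HFD. Deviations were taken from each group mean, so the values of 1 library with the 3 libraries of the other group offset each other. The low values for different numbers thus follow in part from the computation and are no separate evidence of a pairing. No label gives a pairing, which was read from these same counts. Replicate 3 is also batch 2, and the highest correlations joined libraries rich in muscle markers (replicate 2 on NCD and 3 on HFD). Whether the numbers mark true pairs was not tested. A fit blocked on the number within each diet called 11 members on NCD in place of 6 (27.5% of the 40 members and 8.86% of all genes tested). The 6 members above remained called. Beside them and Adamts1, the block added Adamts2 and Adamts5 (log2 fold change -0.64 and -0.58), Adamts20 (-1.76) and Adamtsl3 (-0.62), each lower in the cold, with blocked adjusted p of 0.0239, 0.0153, 0.0176 and 0.0268. Adamts2 removes the amino-terminal propeptide of fibrillar procollagens, and Adamts5 is an aggrecan- and versican-cutting protease. On NCD, Adamts20 had 1.74, 4.19 and 1.96 CPM without cold exposure and 0.573, 1.00 and 0.639 CPM in the cold. Its groups did not overlap, but replicate 2, which is rich in muscle markers, was the highest library of each. The part of muscle in its values was not tested. Adamts2, Adamts3, Adamts4, Adamts5, Adamts17, Adamts20, Adamtsl1, Mmp13 and Mmp17, and among the pathway genes those given for diet, lie outside the rule for named genes and were singled out after their values were seen.

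Fibroblast and preadipocyte markers moved in the same direction as the members that fell. Their summed level was 2069 to 2689 CPM in the 3 libraries on NCD at 22 °C and 1162 to 1318 CPM at 4 °C, with no overlap, and 5 of 12 markers (Lum, Dpt, Mfap5, Col1a1 and Col3a1) were called lower. On HFD the sums were 1264 to 1939 CPM at 22 °C and 1043 to 1506 CPM at 4 °C, and 2 of 12 (Mfap5 and Clec3b) were called lower in the cold. None of the 12 markers was without counts. Their part in the fall of Mmp2, Timp2, Adamts6 and Adamts12 was not tested. Summed endothelial markers were 665 to 768 CPM on NCD at 22 °C and 879 to 1016 CPM at 4 °C, with 1 of 7 markers (Pecam1) called higher, and their part in the rise of Loxl1 and Adamts9 was not tested either.

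**Figure D3:**
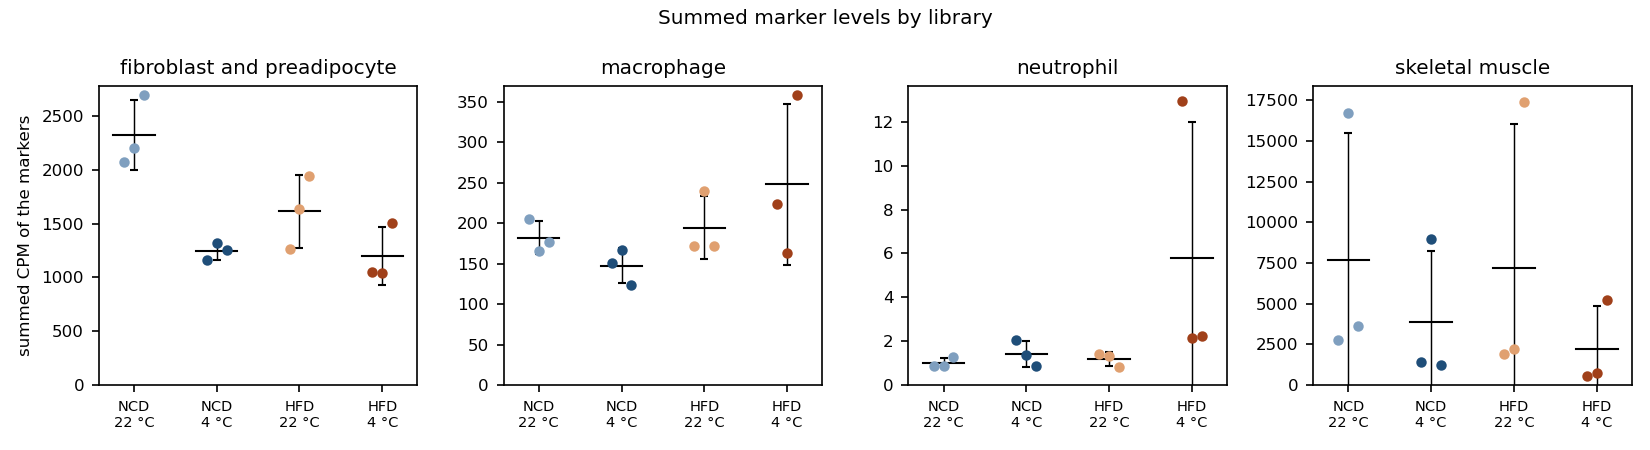
Summed CPM of 12 fibroblast and preadipocyte, 10 macrophage, 10 neutrophil and 10 skeletal muscle markers by library (points), with group mean (line) and SD (bar, cut at 0); each panel has its own axis. Fibroblast sums do not overlap between temperatures on NCD, 1 HFD library at 4 °C stands apart for neutrophil markers at 13.0 CPM, and 1 library per group is highest for muscle markers.

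On HFD, the same cold exposure called 3 of 40 members (7.50%), against 9.58% of all genes tested. Mmp3 and Adamts1 rose (5.39% of all genes did) and Adamtsl3 fell (4.19% of all genes did). Libraries did not overlap for 9 members (30.3% of all genes), 4 higher (15.9% of all genes) and 5 lower (14.4% of all genes). The median log2 fold change was -0.05 over the 40 members and -0.04 over all genes tested, and 22 of 40 lay below 0.

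Adamts1 had 40.4, 26.8 and 44.4 CPM on HFD at 22 °C and 107, 62.04 and 66.5 CPM at 4 °C (log2 fold change 1.08 ± 0.27 SE, edgeR adjusted p = 0.0251). All 3 cold libraries lay above those at 22 °C, as on NCD. Adamtsl3, one of the proteins without a protease domain, fell from 11.5, 23.8 and 15.98 to 7.02, 9.99 and 9.25 CPM (log2 fold change -0.96 ± 0.23 SE, edgeR adjusted p = 0.0227). On NCD, Adamtsl3 had 11.6, 12.8 and 14.03 CPM at 22 °C and 7.45, 8.65 and 8.92 CPM at 4 °C, and its groups did not overlap on either diet.

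Mmp3, stromelysin 1, had 1.87, 2.40 and 3.11 CPM on HFD at 22 °C and 6.89, 2.64 and 12.3 CPM at 4 °C (log2 fold change 1.56 ± 0.43 SE, edgeR adjusted p = 0.0399). Replicates 1 and 3 lay above every 22 °C library, while replicate 2 lay within the range of the 22 °C libraries. Summed macrophage markers were 223, 163 and 358 CPM in the same 3 cold libraries and 172 to 239.6 CPM on HFD at 22 °C, with 1 of 10 markers (Cd68) called higher, and their part in the Mmp3 values was not tested. The Mmp3 call was lost when any single one of NCD 22 °C replicates 1, 2 and 3, NCD 4 °C replicates 1 and 2, HFD 22 °C replicates 1, 2 and 3 and HFD 4 °C replicates 1 and 3 was left out (adjusted p from 0.0516 to 0.144 by edgeR). The Adamts1 call was lost when any single one of HFD 22 °C replicates 1 and 2 and HFD 4 °C replicate 1 was left out (adjusted p from 0.0552 to 0.0851 by edgeR). The Adamtsl3 call was lost when any single one of HFD 22 °C replicate 2 and HFD 4 °C replicates 1 and 3 was left out (adjusted p from 0.0576 to 0.0936 by edgeR). Without HFD 22 °C replicate 2, no member was called. With the library richest in muscle markers left out of each group, 1 member was called, Adamts12, which was lower in the cold (log2 fold change -0.92, adjusted p = 0.0460 by edgeR). With all 12 libraries Adamts12 had 21.5, 17.4 and 16.7 CPM on HFD at 22 °C and 10.3, 10.2 and 18.1 CPM at 4 °C (log2 fold change -0.52 ± 0.24 SE, edgeR adjusted p = 0.189), and without HFD 4 °C replicate 3 alone it was called as well (-0.84, adjusted p = 0.0400 by edgeR). None of the 3 was called in batch 1 alone or in a fit of only the 6 HFD libraries. Calls over all genes fell as well, from 1603 with all 12 libraries to 1088 without HFD 22 °C replicate 2. They were 731 without the muscle-rich libraries, 416 in batch 1 alone and 855 in the fit of the 6 HFD libraries. The batch 2 libraries, 1 per group, differed by 1.96 for Mmp3, 0.58 for Adamts1 and -0.78 for Adamtsl3 on the log2 scale.

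With the replicate block within diet, 9 members were called on HFD in place of 3 (22.5% of the 40 members and 12.9% of all genes tested), and the 3 above remained. Those added were Adamts4 (blocked log2 fold change 2.03), Adamtsl5 (0.77), Adamts6 (-0.72), Adamtsl1 (-0.94), Adamts20 (-1.44) and Mmp13 (-1.48), with blocked adjusted p by edgeR from 0.00359 for Adamts4 to 0.0482 for Adamtsl1. Adamts20 had 0.580, 0.680 and 3.25 CPM on HFD at 22 °C and 0.360, 0.308 and 0.769 CPM at 4 °C, with overlap. Its highest library at both temperatures was replicate 3, the one richest in muscle markers, and the part of muscle was not tested. Adamts4, an aggrecan-cutting protease, had 11.4, 1.81 and 2.61 CPM on HFD at 4 °C and 2.25, 0.470 and 0.762 CPM at 22 °C, so that 1 library stood far above the others. The same library, HFD 4 °C replicate 1, held 13.0 CPM of neutrophil markers against 0.819 to 2.24 CPM in the other 11 libraries, and 21 of the 29 counts of Mmp8, neutrophil collagenase. Of the 10 neutrophil markers, 3 passed the count filter, Camp, Elane and Mpo had no count in this group, and S100a8 was called higher in the cold on HFD. Their part in the Adamts4 values was not tested.

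**Figure D4:**
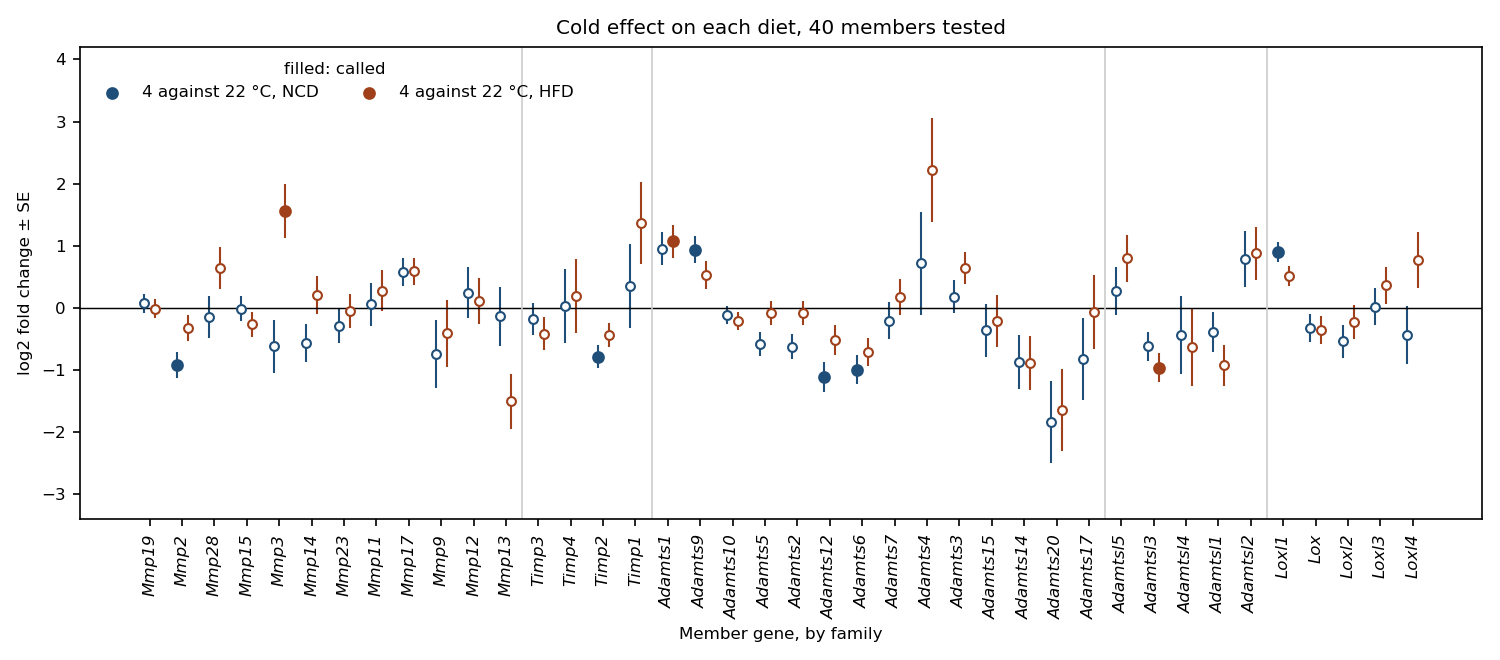
Log2 fold change (4 °C against 22 °C) with SE for the 40 members tested, on NCD (blue) and HFD (red), by family and level; filled points were called. On NCD 2 members rose and 4 fell, and on HFD 2 rose and 1 fell.

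Whether the cold effect differed between the diets was tested by the interaction of diet and temperature. It called 0 of 40 members, and 0% of all genes tested at an adjusted p under 0.05. At an unadjusted p under 0.05 it took 1 member, against 6.52% of all genes tested, and DESeq2 called 0 members at an adjusted p under 0.05 but 64 of all genes (0.382%). The member with an unadjusted p under 0.05 in edgeR was Mmp3, with an interaction of 2.17 ± 0.61 SE on the log2 scale, adjusted p = 0.558 in edgeR. On NCD Mmp3 had 4.04, 3.84 and 5.17 CPM at 22 °C and 2.52, 3.12 and 2.89 CPM at 4 °C. It was lower in every cold library and not called (log2 fold change -0.62 ± 0.43 SE, edgeR adjusted p = 0.458). At 22 °C its HFD libraries lay below those on NCD, also without a call (-0.81 ± 0.43 SE, edgeR adjusted p = 0.350). Without HFD 4 °C replicate 2, Mmp3 passed the interaction test, as 1 of 22 genes over all. For Mmp2 the cold contrasts gave log2 fold changes of -0.92 on NCD and -0.33 on HFD with an interaction of 0.60 ± 0.29 SE (adjusted p = 0.783 in edgeR), and Loxl1 gave 0.90 and 0.52 with an interaction of -0.38 ± 0.23 SE (adjusted p = 0.817 in edgeR). These values do not show that the cold effect was equal on both diets.

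The test across the 4 groups called 13 of 40 members (32.5%) at an adjusted p under 0.05, against 24.3% of all genes, and 0 at 0.001, against 2.55% of all genes. The 13 were the 10 members called in a single contrast together with Mmp13, Mmp17 and Adamts3. Adamts6 had the lowest value (adjusted p = 0.00215 by the edgeR quasi-likelihood test), followed by Loxl1 (0.00636), Mmp2 (0.00703) and Mmp12 (0.00828).

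The diet was compared next. At 22 °C, HFD called 1 of 40 members, higher on HFD, against 2.09% of all genes tested (0.992% higher and 1.09% lower), and libraries did not overlap for 10 members (25.9% of all genes). At 4 °C it called 2 members, both higher on HFD, against 4.75% of all genes (2.06% higher and 2.69% lower), and libraries did not overlap for 9 (25.2% of all genes). The median log2 fold change of the members was 0.14 at 22 °C, against 0.03 for all genes, and 0.32 at 4 °C, against 0.02. At 4 °C, 30 of 40 members lay above 0, while 51.8% of all genes did. The cold groups enter both this comparison and those of temperature, so these values share libraries. Summed endothelial markers did not overlap between the diets, with 665 to 768 CPM on NCD and 897 to 1134 CPM on HFD at 22 °C, and 879 to 1016 CPM on NCD and 1115 to 1329 CPM on HFD at 4 °C. Of the 7 markers, Pecam1 was called higher on HFD at 22 °C and none at 4 °C, and their part in the values of the members was not tested.

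Mmp12, macrophage elastase, had 0.747, 0.349 and 1.08 CPM on NCD at 22 °C and 3.48, 2.40 and 1.86 CPM on HFD (log2 fold change 1.76 ± 0.40 SE, edgeR adjusted p = 0.0484). At 4 °C it had 0.975, 0.883 and 0.829 CPM on NCD and 1.94, 3.74 and 2.61 CPM on HFD (log2 fold change 1.63 ± 0.40 SE, edgeR adjusted p = 0.0402). All 6 HFD libraries lay above all 6 NCD libraries. Summed macrophage markers overlapped between diets at 22 °C (166 to 205 CPM on NCD and 172 to 239.6 CPM on HFD) and at 4 °C (124 to 167 and 163 to 358 CPM), with 0 and 2 of 10 markers (Mrc1 and Itgam) called higher on HFD, and their part in the Mmp12 values was not tested. Mmp12 was read at low depth, with 535 counts over all libraries. At 22 °C the call was lost in each of the 12 fits without 1 library (adjusted p 0.0552 to 0.156 by edgeR). At 4 °C, the Mmp12 call was lost when any single one of NCD 22 °C replicate 1, NCD 4 °C replicates 1, 2 and 3, HFD 22 °C replicate 2 and HFD 4 °C replicates 1, 2 and 3 was left out (adjusted p from 0.0576 to 0.132 by edgeR). The batch 2 libraries differed by 0.75 at 22 °C and 1.57 at 4 °C on the log2 scale.

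Adamts6 was the other member called for diet. On HFD at 4 °C it had 5.31, 5.86 and 4.10 CPM, against 2.98, 2.06 and 2.13 CPM on NCD at 4 °C (log2 fold change 1.09 ± 0.23 SE, edgeR adjusted p = 0.0255). At 22 °C it had 9.08, 9.10 and 6.86 CPM on HFD and 4.11, 4.13 and 5.93 CPM on NCD (log2 fold change 0.81 ± 0.23 SE, edgeR adjusted p = 0.0931), so that the libraries were higher on HFD at both temperatures and lower in the cold on both diets. At 4 °C, the Adamts6 call was lost when any single one of NCD 4 °C replicates 2 and 3 and HFD 4 °C replicates 1 and 2 was left out (adjusted p from 0.0516 to 0.0929 by edgeR). Mmp2 on HFD at 22 °C, with 14.04, 22.01 and 20.3 CPM, lay below every NCD library at 22 °C (log2 fold change -0.83 ± 0.21 SE, edgeR adjusted p = 0.0644), and was not called. DESeq2 called it (-0.85, DESeq2 adjusted p = 0.00417), as did edgeR without a filter on counts (-0.85, edgeR adjusted p = 0.0254). In batch 1 alone it was not called (-0.84, edgeR adjusted p = 0.189). With the library richest in muscle markers left out of each group, no member was called for diet at either temperature. Over all genes that fit called 72 at 22 °C and 384 at 4 °C, against 349 and 795 with all 12 libraries.

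**Figure D5:**
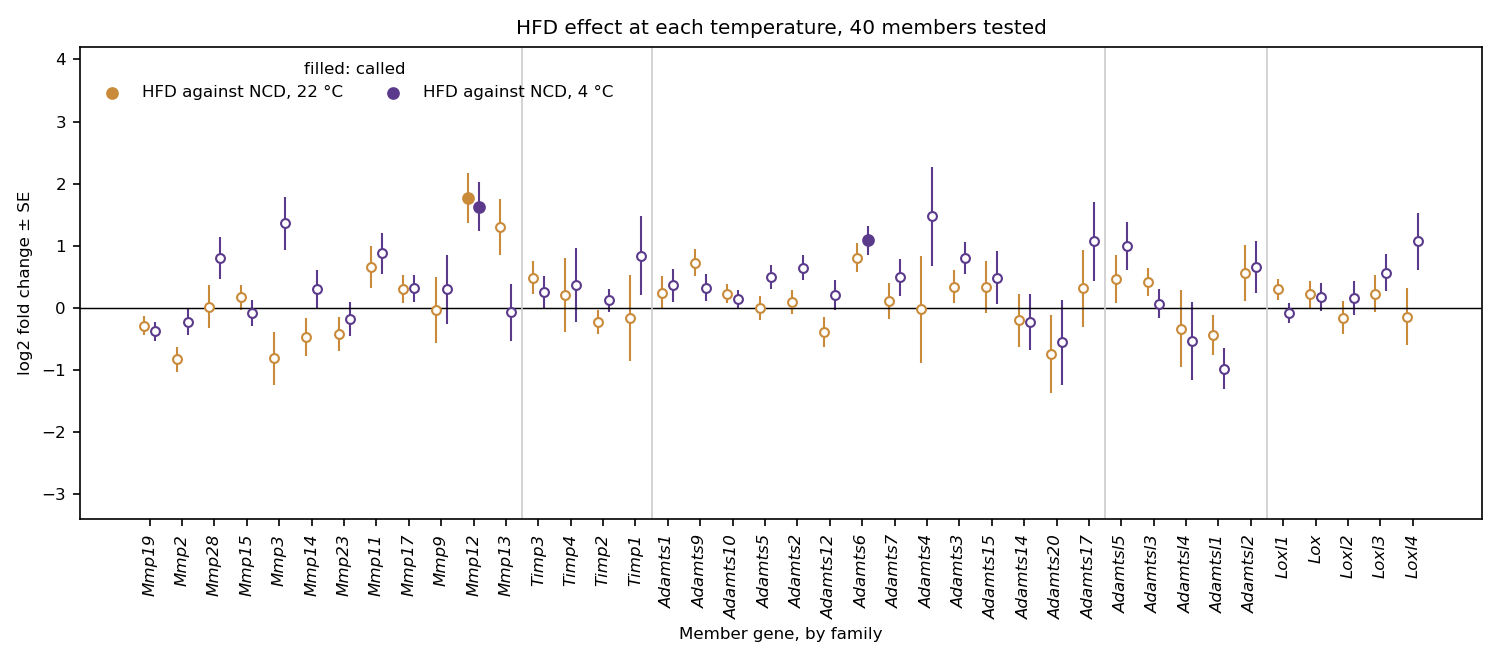
Log2 fold change (HFD against NCD) with SE for the 40 members tested, at 22 °C (ochre) and 4 °C (violet), by family and level; filled points were called. Mmp12 is called at both temperatures and Adamts6 at 4 °C, and 30 of 40 members lie above 0 at 4 °C.

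Among the inhibitors, only Timp2 was called in any of the 4 contrasts. Timp3 had 156, 246 and 249 CPM on NCD at 22 °C, 132, 229 and 214 at 4 °C, 219.6, 401.1 and 293 on HFD at 22 °C and 236, 248 and 203 at 4 °C, and the groups overlapped in every contrast. Timp4, the inhibitor best known from heart and adipose tissue, varied 5.82-fold between libraries and overlapped between groups, with 27.99, 76.4 and 70.6, then 21.7, 69.2 and 87.1, 25.9, 92.2 and 83.2 and 126, 53.5 and 49.99 CPM in the same order. In 3 of the 4 groups its lowest library was replicate 1. Timp1, an inhibitor that is induced in inflamed tissue, was low, with 0.675, 0.749 and 1.72 CPM on HFD at 4 °C and 0.0847 to 0.837 CPM in the other 9 libraries. Its highest library, HFD 4 °C replicate 3, was also that with the highest Mmp3 and macrophage marker levels, and none of its contrasts was called. On HFD, Timp2 had 27.1, 34.6 and 36.3 CPM at 22 °C and 24.8, 22.4 and 25.3 CPM at 4 °C without overlap (log2 fold change -0.44 ± 0.19 SE, edgeR adjusted p = 0.158).

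Of the crosslinkers, only Loxl1 was called. On HFD it had 31.6, 31.8 and 34.1 CPM at 22 °C and 34.3, 47.3 and 58.1 CPM at 4 °C without overlap (log2 fold change 0.52 ± 0.16 SE, edgeR adjusted p = 0.0622). Without HFD 4 °C replicate 1 this contrast was called, with a log2 fold change of 0.73 and an adjusted p of 0.0107 by edgeR. Lox, the founding member of the family, had 42.4, 48.8 and 48.9 CPM on NCD at 22 °C, 32.3, 28.5 and 51.4 at 4 °C, 66.996, 47.05 and 48.99 on HFD at 22 °C and 45.7, 33.2 and 48.03 at 4 °C, and its cold log2 fold changes were -0.32 ± 0.22 SE on NCD and -0.36 ± 0.22 SE on HFD. Loxl2, which crosslinks collagen IV of basement membranes, had 8.90 to 24.3 CPM, Loxl3 had 2.49 to 6.97 CPM and Loxl4 had 0.355 to 2.43 CPM over the 12 libraries. None of these 4 passed the test in any contrast.

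The most abundant Mmp, Adamts and Adamtsl genes without a level given so far were not called in any contrast of the main fit. Mmp19 had 37.0 to 67.2 CPM over the 12 libraries, with cold log2 fold changes of 0.07 ± 0.15 SE on NCD and -0.01 ± 0.15 SE on HFD. Mmp15 had 23.5 to 43.4 CPM, Mmp28 13.9 to 48.4 CPM and Adamts10, which is linked to fibrillin microfibrils, 20.9 to 32.5 CPM. Adamtsl4 had 1.78 to 11.5 CPM and was highest in NCD 22 °C replicate 2 (11.5 CPM), NCD 4 °C replicate 2 (9.59 CPM) and HFD 22 °C replicate 3 (7.26 CPM), which are also the libraries with the highest skeletal muscle marker sums (8945 to 17422 CPM). The part of muscle in its values was not tested. Adamtsl5 had 5.68 to 24.7 CPM. Adamts9, which was called in the cold on NCD, was not called on HFD. There it had 91.4, 62.9 and 109 CPM at 22 °C and 166, 103 and 111 CPM at 4 °C with overlap (log2 fold change 0.53 ± 0.22 SE, edgeR adjusted p = 0.142).

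By position, 9 of the 22 Mmp genes lie side by side on chromosome 9 (7272514 to 7699585, GRCm38, GENCODE M21). The cluster holds Mmp13, Mmp12, Mmp1b, Mmp3, Mmp10, Mmp8, Mmp27, Mmp20 and Mmp7, and 3 of the 9 passed the count filter, and of the Mmp genes elsewhere 9 of 13 did. Mmp3 had 1486, Mmp12 535 and Mmp13 197 counts over the 12 libraries, whereas Mmp8 had 29, Mmp27 49 and Mmp1b, Mmp7, Mmp10 and Mmp20 none. Mmp3 rose in the cold on HFD, Mmp12 rose with HFD, and Mmp13, collagenase 3, had 0.837, 1.05 and 1.61 CPM on HFD at 22 °C and 0.405, 0.440 and 0.396 CPM at 4 °C without overlap (log2 fold change -1.51 ± 0.45 SE, edgeR adjusted p = 0.0518).

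Promoter windows of RefSeq (GRCm38.p6, the 250 bases before the start) were matched by symbol for 36 of the 55 members, in 39 windows. The letters TGANTCA, a loose form of the AP-1 motif with any base at N, were searched on both strands. They stood in 7 of 39 windows (17.9%), against 6.75% of 32851 windows of the same length. All 7 belong to the chromosome 9 cluster (Mmp1b, Mmp3, Mmp7, Mmp10, Mmp12, Mmp13 and Mmp20). The Mmp20 match was TGAATCA, and the others were the usual AP-1 letters TGAGTCA or TGACTCA. The share of all windows with only the usual letters was not counted. The last 100 bases before the start of the 3 tested genes of the cluster are shown because they carry the same motif at a similar distance. For Mmp12 this holds only for the downstream of its 2 starts, which was picked for its match. The window of the upstream start holds none. Capitals mark the motif, which begins 46, 44 and 35 bases before the start, and all 3 are on the plus strand (Mmp3 chr9:7445722-7445821, Mmp12 chr9:7347274-7347373 for the downstream of its 2 starts, Mmp13 chr9:7272414-7272513).
Mmp3: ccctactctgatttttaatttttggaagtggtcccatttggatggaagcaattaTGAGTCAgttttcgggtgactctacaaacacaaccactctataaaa
Mmp12: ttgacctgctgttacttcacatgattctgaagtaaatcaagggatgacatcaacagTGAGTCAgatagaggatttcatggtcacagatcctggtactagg
Mmp13: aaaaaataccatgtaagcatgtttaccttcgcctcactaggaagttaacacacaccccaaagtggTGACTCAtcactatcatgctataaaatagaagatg

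The letters TGACG, a half-site of the cAMP response element, stood in 7 of 39 member windows (17.9%) and in 17.8% of all windows, and the full element TGACGTCA in 0 of 39, against 1.55% of all windows. Of the tested members that were higher in every cold library on NCD, the 2 with a window, Adamts1 and Adamts9, are among the 7, with Adamts3, Adamts12, Adamtsl3, Loxl4 and Timp1. Adamts12 and Adamtsl3 fell in a cold contrast, so the half-site stood before members that rose and members that fell. The full windows of Adamts1 (minus strand, chr16:85803114-85803363) and Adamts9 (minus strand, chr6:92943535-92943784) follow, with the half-site in capitals at 170 and 218 bases before the start. The RefSeq starts of Adamts9 and Adamts12 were not found in the first part of a GENCODE M21 transcript.
Adamts1: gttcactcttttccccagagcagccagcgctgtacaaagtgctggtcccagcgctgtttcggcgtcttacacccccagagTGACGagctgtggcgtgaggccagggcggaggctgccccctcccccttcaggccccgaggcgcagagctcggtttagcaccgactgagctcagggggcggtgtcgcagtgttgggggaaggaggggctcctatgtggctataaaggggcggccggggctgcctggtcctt
Adamts9: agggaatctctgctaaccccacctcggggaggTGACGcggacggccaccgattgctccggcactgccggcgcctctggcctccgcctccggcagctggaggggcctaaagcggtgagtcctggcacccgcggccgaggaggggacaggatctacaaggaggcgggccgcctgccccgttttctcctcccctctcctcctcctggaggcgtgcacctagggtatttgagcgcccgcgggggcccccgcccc

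Adamts1 and Adamts5 are neighbours on chromosome 16, on the same strand and 53059 bases apart. In the cold on NCD, Adamts1 had a log2 fold change of 0.95 ± 0.27 SE and Adamts5 of -0.58 ± 0.20 SE, with 32.5, 24.8 and 27.2 CPM at 22 °C and 22.02, 18.8 and 16.03 CPM at 4 °C for Adamts5. On HFD they had 1.08 ± 0.27 SE and -0.08 ± 0.19 SE. On NCD every cold library was thus above those at 22 °C for Adamts1 and below them for Adamts5, whose fall was called in the fit with the replicate block.

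The 15 members below the filter are Mmp1b, Mmp7, Mmp8, Mmp10, Mmp16, Mmp20, Mmp21, Mmp24, Mmp25, Mmp27, Adamts8, Adamts13, Adamts16, Adamts18 and Adamts19. Of these, Mmp1b, Mmp7, Mmp10 and Mmp20 had no count in any library, which allows at most 0.0699 to 0.193 CPM per library by counting error. The other 11 did not exceed 0.945 CPM, reached by Mmp8. No test was made for them.

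Genes that act with the members were described by lists of related pathways, with counts from the same fit. For comparison, 3.72% of all genes tested rose and 2.55% fell in the cold on NCD, and 5.39% rose and 4.19% fell on HFD. Of 24 plasminogen system and protease regulator genes tested, 4 rose and 1 fell in the cold on NCD, and 4 rose on HFD. Adam12, a membrane-bound relative of the Adamts enzymes, rose by 1.74 on NCD and 1.46 on HFD (log2 fold change), and Bsg, known as an inducer of Mmp genes, by 1.42 and 1.003. Both were called in all 12 fits without 1 library on either diet. Htra1, a secreted serine protease, had -1.08 on NCD, and Pcsk6, a convertase of proenzymes, had 0.99 on HFD.

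Of 15 fibrillar and network collagens tested, 5 fell and 1 rose on NCD (2.55% and 3.72% of all genes did). Those with the largest changes were Col1a1 at -1.71, Col3a1 at -1.70 and Col1a2 at -1.50 on the log2 scale. On HFD 2 were called higher (5.39% of all genes were), the basement membrane chains Col4a1 (1.02) and Col4a2 (0.93). None was called lower (4.19% of all genes were). Of 19 proteoglycan and glycoprotein substrates, 3 fell on NCD, with -1.23 for Vcan, the versican cut by several Adamts enzymes, -0.92 for Lum and -0.75 for Fn1. Of 17 elastic fibre and fibrillin genes, 3 fell on NCD (Emilin2 -1.17, Efemp1 -1.15, Mfap5 -1.005), and on HFD Mfge8 rose (0.85) and Mfap5 fell (-0.99). Of 19 procollagen processing and hydroxylation genes, 1 passed the test in a cold contrast, Ppib, which acts on collagen in the endoplasmic reticulum and rose on HFD (0.57). The median log2 fold changes on NCD were 0.01 for the regulators, -0.74 for the collagens, -0.44 for the proteoglycans, -0.42 for the elastic fibre genes and -0.24 for the procollagen enzymes, against -0.01 for all genes tested. On HFD they were 0.03, -0.52, -0.09, -0.22 and -0.06 in the same order, against -0.04 for all genes tested. The collagen median thus lay below that of all genes on both diets. Col1a1, Col3a1, Lum and Mfap5 also stand in the fibroblast marker list.

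These calls also rested on few libraries. Adam12, Bsg, Pcsk6, Mfge8, Col4a1 and Col4a2 remained called on HFD in every fit without 1 library. The Emilin2 call was lost when any single one of NCD 22 °C replicates 1, 2 and 3 and NCD 4 °C replicates 1, 2 and 3 was left out (adjusted p from 0.0511 to 0.0906 by edgeR). Efemp1 and Vcan were lost without the same libraries, with adjusted p from 0.0571 to 0.0764 and from 0.0513 to 0.109 by edgeR. The Fn1 call was lost when any single one of NCD 22 °C replicates 1, 2 and 3, NCD 4 °C replicates 1, 2 and 3 and HFD 22 °C replicate 2 was left out (adjusted p from 0.0564 to 0.151 by edgeR). The Htra1 call was lost when any single one of NCD 22 °C replicates 1, 2 and 3, NCD 4 °C replicates 1 and 2 and HFD 22 °C replicates 1 and 2 was left out (adjusted p from 0.0526 to 0.133 by edgeR). The Lum call was lost when any single one of NCD 22 °C replicates 1, 2 and 3, NCD 4 °C replicates 1, 2 and 3, HFD 22 °C replicates 1 and 2 and HFD 4 °C replicate 2 was left out (adjusted p from 0.0573 to 0.132 by edgeR). The Col1a1 call was lost when any single one of NCD 22 °C replicates 2 and 3 and NCD 4 °C replicates 1 and 3 was left out (adjusted p from 0.0506 to 0.0792 by edgeR). The Col3a1 call was lost when any single one of NCD 22 °C replicate 3 and NCD 4 °C replicates 1, 2 and 3 was left out (adjusted p from 0.0567 to 0.0709 by edgeR). The Col1a2 call was lost when any single one of NCD 22 °C replicates 2 and 3 and NCD 4 °C replicates 1, 2 and 3 was left out (adjusted p from 0.0541 to 0.0877 by edgeR). The Ppib call was lost when any single one of HFD 22 °C replicate 3 and HFD 4 °C replicate 3 was left out (adjusted p from 0.0725 to 0.0807 by edgeR). For Mfap5 the calls ended without any of 7 libraries on NCD (the 6 NCD libraries and HFD 22 °C replicate 2, adjusted p from 0.0519 to 0.126 by edgeR) and without any of 5 on HFD (NCD 22 °C replicate 3, HFD 22 °C replicates 2 and 3, HFD 4 °C replicates 1 and 2, adjusted p from 0.0514 to 0.109 by edgeR). With the library richest in muscle markers left out of each group, the calls of Col1a1, Col1a2, Lum, Fn1, Htra1 and Mfap5 on NCD were lost (adjusted p 0.0530, 0.0610, 0.0554, 0.0889, 0.0878 and 0.137 by edgeR), as were those of Mfap5, Pcsk6, Mfge8 and Ppib on HFD (adjusted p 0.0816, 0.0573, 0.0661 and 0.208). In batch 1 alone, Col1a1, Col1a2, Lum, Fn1 and Mfap5 were not called on NCD, nor were Mfap5, Pcsk6, Mfge8, Col4a1, Col4a2 and Ppib on HFD, and Fn1 had a log2 fold change of -0.44 and Ppib of 0.37. Fits of only the 6 libraries compared lost Htra1 and Fn1 on NCD, and Mfap5, Bsg and Ppib on HFD, with adjusted p from 0.0536 (Htra1) to 0.108 (Mfap5) by edgeR.

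With diet, Pcolce, which enhances the removal of the procollagen propeptide, rose on HFD at 22 °C (1.23) and at 4 °C (1.60), as did Lrp1, a receptor that takes up proteases and their inhibitor complexes (0.69 and 0.55 on the log2 scale). At 4 °C P3h2, a collagen prolyl hydroxylase, rose by 1.61, and the collagen IV chains Col4a1, Col4a2 and Col4a5 by 0.74, 0.71 and 1.05. Mfge8 (1.05) and Adam17 (0.52) were also called higher there. Adjusted p by edgeR ran from 0.00429 (Pcolce at 4 °C) to 0.0395 (Lrp1 at 4 °C). At 4 °C these were 2 of 19 procollagen genes, 2 of 24 regulators, 1 of 17 elastic fibre genes and 3 of 15 collagens, with 0 of 19 proteoglycan genes. Of all genes tested, 2.06% were called higher on HFD at 4 °C and 0.992% at 22 °C. The dependence of these pathway calls on single libraries was not tested for diet.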

How the data were processed

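The authors trimmed reads with cutadapt and quantified them with salmon against GENCODE M22 and RNAcentral 5 (GRCm38), and deposited whole-number estimated counts per gene in 1 table; tool versions and strand use are not given in the sources used here, and 0 columns were left unmapped. Groups came from the labels, and 22 °C from the column names. Genes passing filterByExpr (minimum count 10) were scaled by TMM and fitted in edgeR 4.0.16 (R 4.3.3) by the quasi-likelihood test, as 4 group means over 12 libraries without covariates. CPM used the TMM-scaled library sizes, and lengths and positions came from GENCODE M21. Batch 1 libraries had a median of 18240838.5 counts and batch 2 libraries 40328346. Counts of 0 are bounded at 3 counts, which covers counting error only. Named genes were every Timp and Lox family gene, every member called in a contrast and the 3 Mmp, Adamts and Adamtsl genes with the highest mean CPM; of each pathway list, the 3 called genes with the largest log2 fold change per cold contrast. Members and lists, the motifs and the 150000-base neighbour limit were chosen with earlier results of these data known. Same-numbered libraries deviated together in both cold contrasts, the only source of the pairing. Alternatives included DESeq2 1.42.0, other filters and scaling, batch, replicate blocks and each library left out. The scripts were tested on simulated data.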

Additional observations from a re-analysis of the deposited data

How the results depend on the processing

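The count of members called was 6 for cold on NCD, 3 for cold on HFD, 1 and 2 for the diet at 22 °C and at 4 °C, 0 for the interaction and 13 for the 4-group test. In the same order and leaving out 1 library at a time it ranged from 1 to 7, 0 to 3, 0 to 1, 0 to 2, 0 to 1 and 8 to 12. Batch 1 alone gave 1, 0, 0, 0 for the contrasts and 8 for the 4-group test. Over all genes it called 352, 416, 42 and 53 for the contrasts and 1400 for the 4-group test. With all 12 libraries the calls over all genes were 1049, 1603, 349, 795 and 4067. DESeq2 gave 7 for cold on HFD, and each diet contrast then had 4. Over all genes DESeq2 called 2052 for cold on HFD, 823 for diet at 22 °C and 1323 at 4 °C. Fits of only the 6 libraries compared gave 0 for both diet contrasts and for cold on HFD. Over all genes these fits called 264 for diet at 22 °C, 149 at 4 °C and 855 for cold on HFD. For HFD at 22 °C, DESeq2 size factors and batch as a term each gave 0, and no filter on counts gave 2. In the same order these fits called 347, 392 and 515 of all genes. Without the libraries richest in muscle markers (chosen after seeing the data) the counts were 1, 1, 0, 0 for the contrasts and 6 for the 4-group test. Over all genes the calls were then 281, 731, 72, 384 and 1988. The cause of these changes was not tested.

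The replicate block within diet gave 11 members for the cold on NCD and 9 on HFD. The diet contrasts were not taken as paired, since same-numbered libraries correlated there at -0.180 to 0.365 (22 °C) and -0.211 to 0.196 (4 °C). With the block across the 4 groups, Mmp12 was not called for diet (edgeR adjusted p 0.0695 at 22 °C and 0.0567 at 4 °C), and Mmp2 at 22 °C and Adamts4 and Adamts6 at 4 °C were.

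The 12 called member results kept their direction in all 273 refits, with the call kept in 177 and lost in 96. Of 2334 refits of named members not called, 48 gave a call and 110 another sign, 0 of these with an adjusted p under 0.05 by edgeR or DESeq2. The log2 fold change then changed sign as follows. With batch as a term it was Timp4 -0.00098 (cold on NCD), Adamts4 0.019 (HFD at 22 °C). In batch 1 alone it was Timp4 -0.20 (cold on NCD), Mmp12 -0.045 (cold on HFD), Timp1 0.28 (HFD at 22 °C), Timp1 -0.029, Timp2 -0.10, Loxl2 -0.30, Adamts12 -0.22 and Mmp13 0.28 (HFD at 4 °C). With the replicate block within diet it was Timp4 -0.059 and Mmp15 0.00091 (cold on NCD), Mmp19 0.00010 (cold on HFD). With the replicate block across the 4 groups it was Timp4 -0.011 and Mmp15 0.0049 (cold on NCD), Adamts4 0.0069 and Adamts5 -0.0064 (HFD at 22 °C). In DESeq2 it was Loxl3 -0.0066 (cold on NCD), Adamts5 -0.021 (HFD at 22 °C). Without the libraries richest in muscle markers it was Mmp12 -0.070, Mmp28 0.12 and Adamts10 0.0068 (cold on NCD), Mmp12 -0.045 (cold on HFD), Timp1 0.59, Adamts2 -0.040 and Adamts5 -0.055 (HFD at 22 °C), Loxl2 -0.028, Lox -0.091 and Adamts12 -0.21 (HFD at 4 °C). Without a filter on counts it was Mmp15 0.0025 (cold on NCD), Mmp19 0.024 (cold on HFD), Adamts5 -0.017 (HFD at 22 °C). With a mean of at least 10 counts it was Mmp19 0.012 (cold on HFD), Mmp28 -0.0045 and Adamts5 -0.025 (HFD at 22 °C). With DESeq2 size factors in edgeR it was Adamts5 -0.021 (HFD at 22 °C). Leaving out 1 library, the lowest and highest log2 fold changes were for cold on NCD Timp3 -0.36 to 0.039, Timp4 -0.35 to 0.43, Loxl3 -0.18 to 0.39, Mmp12 -0.059 to 0.71, Mmp15 -0.10 to 0.12, Mmp19 -0.029 to 0.19, Mmp28 -0.43 to 0.043, Adamtsl4 -1.40 to 0.27, Adamtsl5 -0.14 to 0.61 and Mmp13 -0.45 to 0.25. They were for cold on HFD Timp4 -0.34 to 0.48, Mmp12 -0.16 to 0.41, Mmp15 -0.43 to 0.076, Mmp19 -0.15 to 0.17, Adamts2 -0.26 to 0.076 and Adamts5 -0.21 to 0.11. They were for HFD at 22 °C Timp1 -1.03 to 0.42, Timp4 -0.16 to 0.55, Loxl2 -0.36 to 0.011, Loxl3 -0.013 to 0.56, Mmp15 -0.17 to 0.34, Mmp28 -0.20 to 0.26, Adamtsl4 -0.70 to 0.37, Adamts2 -0.055 to 0.17, Adamts4 -0.89 to 0.88 and Adamts5 -0.19 to 0.11. They were for HFD at 4 °C Timp2 -0.078 to 0.31, Timp4 -0.17 to 0.73, Loxl1 -0.27 to 0.13, Loxl2 -0.075 to 0.39, Adamts12 -0.12 to 0.40, Adamtsl3 -0.036 to 0.23, Adamtsl4 -1.02 to 0.44 and Mmp13 -0.33 to 0.24.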
